A study of Mus musculus with 18 samples.

Results

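The genes described here are the interferon-induced genes and interferon regulatory factors of the mouse array, taken by name. A gene belonged to them where its symbol in the probe annotation began with Ifit, Ifi, Irf, Gbp or Isg followed by a digit, or with Oas. That rule took 54 of the 22180 genes with a probe set of their own, and a gene with several such probe sets was represented by the one with the highest mean over the 18 arrays. The study sorted cells from mouse rhabdomyosarcoma, a tumor of skeletal muscle type, and from healthy muscle, and profiled each sorted sample on 1 array. The 4 arrays each of Tom+/Pecam1+, Tom+/Pecam1- and Tom-/Pecam1- tumor cells came from mice of strain BJ;SJL;B6.129 with genotype aP2-Cre/+;tdTomato/+/;SmoM2/+, at postnatal day 48 (repeats 1 to 3) or day 38 (repeat 4). The 3 arrays each of Tom+ and Tom- muscle cells came from sternocleidomastoid muscle of strain B6;SJL with genotype aP2-Cre/+;tdTomato/+ at postnatal day 21 (the label of Tom+ repeat 1 reads aP2-Cre/+;tdTomato). Every mouse, muscle donors included, therefore carried Cre under the aP2 (Fabp4) promoter and a red tdTomato reporter that Cre switches on for good, so that Tom+ cells are those in which the promoter was or had been active, or their descendants. The tumor mice also carried SmoM2, an activated form of Smoothened, the hedgehog signal transducer. Pecam1, an endothelial surface protein that leukocytes also carry, was a sorting gate in tumor but is named for no muscle sample, so the muscle Tom+ cells were not split by it. The labels call the arrays biological repeats and do not say whether a sample pooled animals.

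Interferons are secreted alarm proteins. Type I interferons bind Ifnar1 and Ifnar2, whose kinases Jak1 and Tyk2 switch on a complex that holds Stat2 and Irf9 and binds the interferon-stimulated response element in target promoters. Interferon-gamma acts through the receptor chains Ifngr1 and Ifngr2 and on promoters with a gamma-activated site. The targets include the Ifit proteins, which bind foreign RNA, the Oas enzymes, which make the oligoadenylates that switch on an RNA-cutting enzyme, Isg15, a ubiquitin-like tag, the guanylate-binding proteins (Gbp), large GTPases that attack the compartments of microbes inside cells, and the Ifi200 (PYHIN) family, of which some members sense DNA.

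Of the members, 40 had 49 promoters in the RefSeq table (mouse build GRCm38.p6). The 250 bases before the annotated start were searched on both strands for GAAA followed after any 2 bases by a second GAAA, the core of the interferon-stimulated response element (TTTC, any 2 bases and TTTC on the opposite strand), and for TTCNNNGAA, the core of the gamma-activated site, which reads the same on both strands. The response element core lay in 20 of 49 member promoters (40.8%), against 978 of 32851 of all promoters in the table (2.98%). The gamma-activated site core lay in 9 member promoters (18.4%), against 7.02% of all promoters, and no match of the one overlapped a match of the other in a member promoter (0 overlaps). By family the response element core was found in 4 of 5 Gbp promoters, 5 of 7 Ifi200 promoters, 6 of 9 Ifit promoters, 3 of 7 Oas promoters and 1 of 10 Irf promoters. A gene with several annotated starts counts once for each, neighbouring genes of a family share ancestry, and a match describes letters, not a binding site. The 180 bases before the start are printed for 5 genes with a response element core and for 2 regulatory factors with a gamma-activated site core, chosen after matches and array values were seen so that both patterns described below are represented. Capitals mark the core named for each group. Isg15, Gbp7 and Ifit3 stand for genes higher in Tom+ than in Tom- muscle cells. Their cores begin 78, 72 and 66 bases (Isg15, where they overlap), 53 bases (Gbp7) and 156 and 122 bases (Ifit3) before the start.
Isg15 (chr4:156200819-156200998, minus strand): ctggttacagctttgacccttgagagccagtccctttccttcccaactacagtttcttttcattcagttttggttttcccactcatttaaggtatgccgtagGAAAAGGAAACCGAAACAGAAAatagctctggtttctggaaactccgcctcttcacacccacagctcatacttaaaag
Gbp7 (chr3:142530156-142530335, plus strand): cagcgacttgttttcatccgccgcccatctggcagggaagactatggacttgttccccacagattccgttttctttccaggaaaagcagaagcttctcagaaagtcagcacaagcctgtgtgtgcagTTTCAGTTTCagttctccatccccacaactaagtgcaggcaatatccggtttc
Ifit3 (chr19:34583349-34583528, plus strand): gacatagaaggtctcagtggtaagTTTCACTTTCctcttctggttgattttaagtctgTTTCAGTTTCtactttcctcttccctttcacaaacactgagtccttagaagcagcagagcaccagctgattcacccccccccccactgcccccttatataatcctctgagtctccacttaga
Ifi205 and Ifi207, Ifi200 genes high in Tom-/Pecam1- tumor cells, carry the core 134 and 41 bases before the start.
Ifi205 (chr1:174031756-174031935, minus strand): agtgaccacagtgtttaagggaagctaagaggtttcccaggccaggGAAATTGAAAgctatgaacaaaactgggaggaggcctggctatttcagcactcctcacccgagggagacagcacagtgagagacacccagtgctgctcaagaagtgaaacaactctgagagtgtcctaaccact
Ifi207 (chr1:173741810-173741989, minus strand): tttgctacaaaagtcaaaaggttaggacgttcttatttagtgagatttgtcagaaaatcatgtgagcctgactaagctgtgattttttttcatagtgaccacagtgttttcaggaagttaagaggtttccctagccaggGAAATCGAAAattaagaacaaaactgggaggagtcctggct
Irf1 and Irf8, factors highest in different populations, carry the gamma-activated site core, at 90 bases (Irf1) and at 171 and 153 bases (Irf8).
Irf1 (chr11:53769834-53770013, plus strand): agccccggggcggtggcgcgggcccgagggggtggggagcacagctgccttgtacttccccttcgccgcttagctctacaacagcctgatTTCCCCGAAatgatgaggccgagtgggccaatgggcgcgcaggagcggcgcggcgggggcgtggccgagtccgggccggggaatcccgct
Irf8 (chr8:120736178-120736357, plus strand): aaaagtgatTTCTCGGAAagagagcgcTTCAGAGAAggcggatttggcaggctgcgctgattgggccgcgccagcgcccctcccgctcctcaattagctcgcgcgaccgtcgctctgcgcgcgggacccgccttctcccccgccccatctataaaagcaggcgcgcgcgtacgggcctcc
In these 5 genes, chosen with their values known, the same response element letters stand before genes that differ in opposite directions between Tom+ and Tom- muscle cells, as the values below show. The Gbp7 stretch also holds 2 gamma-activated site cores, at 106 and 87 bases before the start, which are not in capitals.

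Array values are deposited log2 intensities, so a difference of 1 is a 2-fold difference, and levels are compared between samples of 1 gene and not between genes. A gene was tested where at least 3 arrays lay above the 40th percentile of their own values (4.47 to 4.88), which kept 41 of the 54 members. The 13 dim members were Gbp2b, Gbp6, Gbp11, Ifi213, Ifi214, Ifi27l2b, Ifi44l, Ifit1bl1, Ifit1bl2, Ifit3b, Oas1d, Oas1f and Oas1h. Of those tested, 27 were above that level on all 18 arrays and 14 on some, so that a gene such as Gbp5 or Ifi209 entered through the populations where it was high, and the counts below are of tested members, not of all. Of the dim members 10 were above it on no array and 3 on 1 or 2. The name rule also took 4 genes with look-alike names, the Irf2-binding proteins Irf2bp1, Irf2bp2 and Irf2bpl and the nucleolar Isg20l2. They are counted as members but kept apart from the families, a choice made after the names were seen.

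The labels were checked against marker genes. The mean of 10 endothelial markers lay at 10.46 to 11.15 in Tom+/Pecam1+ tumor cells, 6.15 to 6.47 in Tom+/Pecam1- tumor cells, 5.82 to 6.61 in Tom-/Pecam1- tumor cells, 10.36 to 10.52 in Tom+ muscle cells and 6.84 to 7.14 in Tom- muscle cells, so the marked muscle cells carried endothelial markers without a Pecam1 gate. The mean of 8 pan-leukocyte markers lay at 5.62 to 6.84 in Tom+/Pecam1+ tumor cells, 7.02 to 7.42 in Tom+/Pecam1- tumor cells, 8.46 to 9.71 in Tom-/Pecam1- tumor cells, 5.47 to 5.88 in Tom+ muscle cells and 6.82 to 6.97 in Tom- muscle cells. The deposited tumor values carry an adjustment that no label describes: the mean over the 3 populations of a repeat was the same for all 4 repeats at every probe set (within 7.67e-05), which removes differences between tumors, makes tumor p-values tend to be too small, and ties a low array of one population to high arrays of the others in the same repeat. Array medians were 5.41 to 5.44 in tumor and 5.04 to 5.1 in muscle, so tumor was compared with muscle after subtraction of each array's median. In every comparison limma's moderated test was run over all tested genes, a gene was called at a Benjamini-Hochberg adjusted p under 0.05, and ± after a log2 fold change is its standard error.

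The members showed more than one pattern over the 5 populations. Most Gbp genes, Ifit1, Isg15, Oasl2 and Irf7 were high in both populations with endothelial markers, while several Ifi200 genes, Ifi30, Irf4, Irf8, Oas1g and Gbp8 were high in Tom-/Pecam1- tumor cells, as the heat map of all tested members shows. The values on every array are given by repeat number, for the members whose group means span the widest range. They are deposited values, on which tumor medians lie above muscle medians, so orders across tissues in these paragraphs are not centred.

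**Figure D1:**
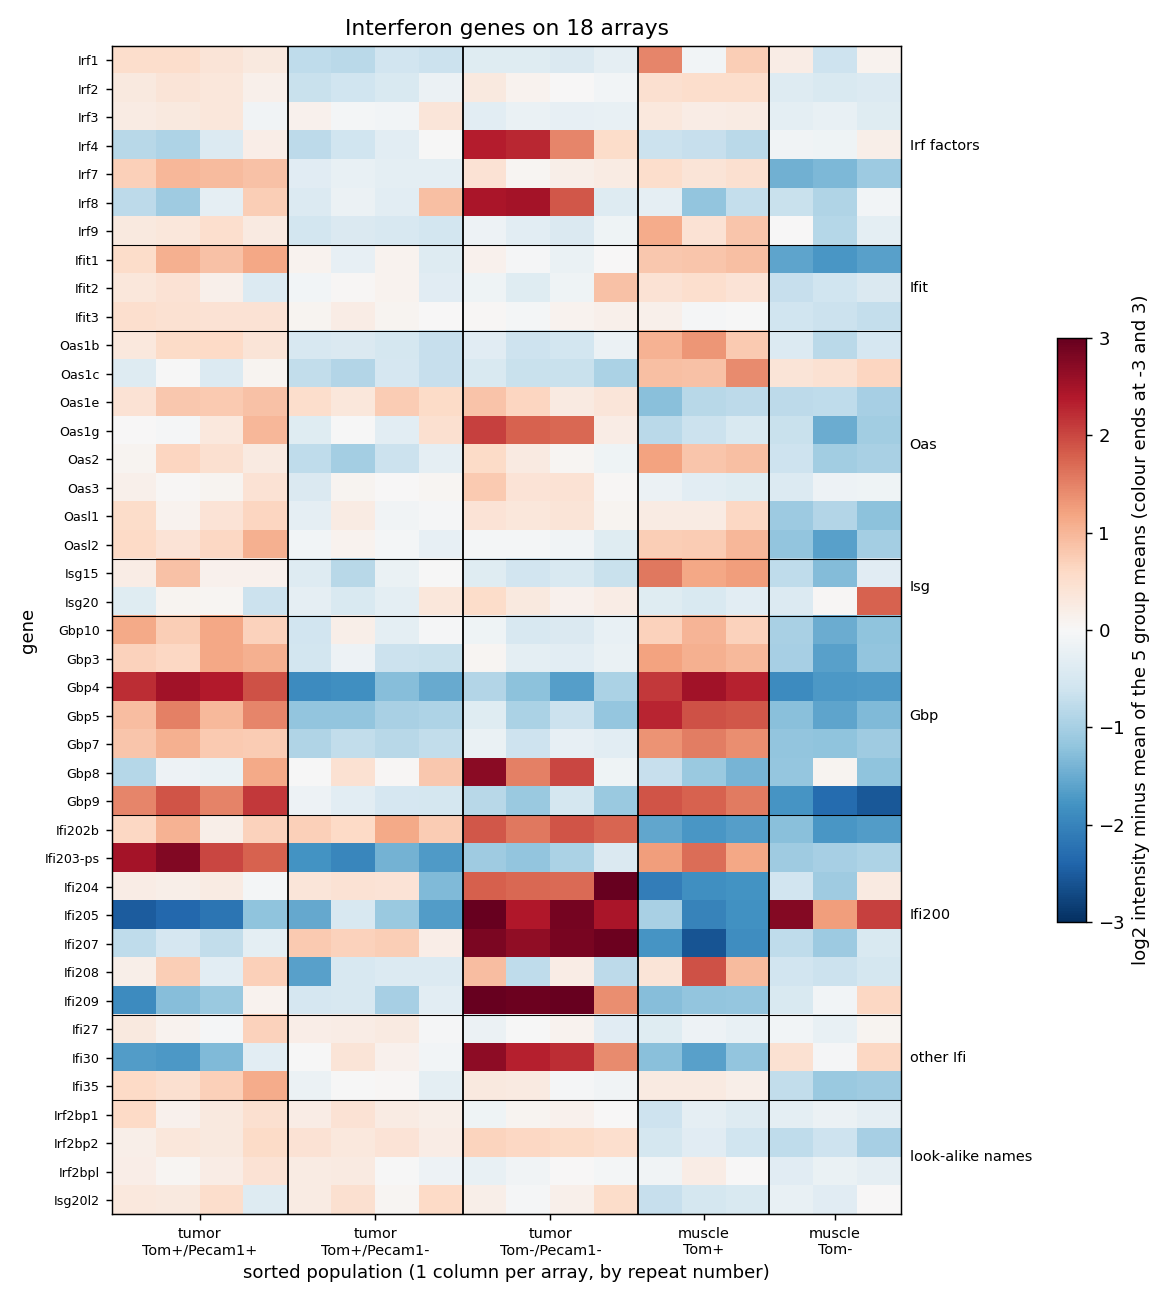
Log2 intensity of the 41 tested members on 18 arrays (columns, grouped by sorted population), each gene relative to the mean of its 5 group means, with red above and blue below it. The Gbp rows other than Gbp8 are red in Tom+/Pecam1+ tumor cells and Tom+ muscle cells, and Ifi205, Ifi207, Ifi209 and Ifi30 are red in Tom-/Pecam1- tumor cells.

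Among the guanylate-binding proteins, Gbp4 set both populations with endothelial markers apart from the other 3. Gbp4 measured 8.45, 8.77, 8.61 and 8.14 in Tom+/Pecam1+ tumor cells, 4.35, 4.39, 4.96 and 4.73 in Tom+/Pecam1- tumor cells and 5.36, 5.002, 4.58 and 5.29 in Tom-/Pecam1- tumor cells. Gbp4 in muscle measured 8.37, 8.76 and 8.53 in Tom+ cells and 4.35, 4.52 and 4.54 in Tom- cells. The lowest of those arrays lay far above the highest of the others, and the groups did not overlap. Gbp9 was likewise highest in these populations. Gbp9 measured 9.84, 10.28, 9.88 and 10.50 in Tom+/Pecam1+ tumor cells, 8.24, 8.06, 7.88 and 7.86 in Tom+/Pecam1- tumor cells and 7.54, 7.28, 7.87 and 7.27 in Tom-/Pecam1- tumor cells. Gbp9 in muscle measured 10.27, 10.17 and 9.94 in Tom+ cells and 6.62, 6.07 and 5.85 in Tom- cells. All tumor arrays of Gbp9 lay above the Tom- muscle arrays. Gbp5 was highest in the populations with endothelial markers. Gbp5 measured 6.51, 7.11, 6.57 and 7.04 in Tom+/Pecam1+ tumor cells, 4.40, 4.39, 4.61 and 4.65 in Tom+/Pecam1- tumor cells and 5.22, 4.63, 4.95 and 4.44 in Tom-/Pecam1- tumor cells. Gbp5 in muscle measured 7.87, 7.49 and 7.45 in Tom+ cells and 4.34, 4.0 and 4.26 in Tom- cells. The Tom+ muscle arrays of Gbp5 were also above the Tom+/Pecam1+ tumor arrays.

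Gbp7 had the order of Gbp5 by mean of the deposited values. Gbp7 measured 8.47, 8.71, 8.43 and 8.40 in Tom+/Pecam1+ tumor cells, 6.73, 6.91, 6.80 and 6.91 in Tom+/Pecam1- tumor cells and 7.43, 7.02, 7.40 and 7.32 in Tom-/Pecam1- tumor cells. Gbp7 in muscle measured 8.997, 9.17 and 9.03 in Tom+ cells and 6.46, 6.43 and 6.58 in Tom- cells. On that scale its Tom+ muscle arrays were the highest and its Tom- muscle arrays the lowest of the 5 populations. On centred values the Tom- muscle and Tom+/Pecam1- tumor arrays of Gbp7 overlapped, at 1.33 to 1.53 and 1.32 to 1.49. Gbp3 and Gbp10 had smaller differences between populations. Gbp3 measured 7.73, 7.67, 8.20 and 8.11 in Tom+/Pecam1+ tumor cells, 6.49, 6.90, 6.39 and 6.37 in Tom+/Pecam1- tumor cells and 7.10, 6.75, 6.73 and 6.84 in Tom-/Pecam1- tumor cells. Gbp3 in muscle measured 8.24, 8.10 and 8.005 in Tom+ cells and 6.05, 5.41 and 5.85 in Tom- cells. Gbp10 measured 8.76, 8.37, 8.79 and 8.32 in Tom+/Pecam1+ tumor cells, 7.06, 7.80, 7.33 and 7.59 in Tom+/Pecam1- tumor cells and 7.49, 7.15, 7.19 and 7.41 in Tom-/Pecam1- tumor cells. In both genes the Tom+/Pecam1+ tumor arrays lay above all other tumor arrays. Gbp10 in muscle measured 8.32, 8.64 and 8.31 in Tom+ cells and 6.64, 6.14 and 6.42 in Tom- cells. In muscle the Tom+ arrays of both genes lay above the Tom- arrays. Gbp8 went the other way. Gbp8 measured 3.38, 4.08, 4.02 and 5.37 in Tom+/Pecam1+ tumor cells, 4.22, 4.70, 4.27 and 5.05 in Tom+/Pecam1- tumor cells and 6.94, 5.76, 6.23 and 4.11 in Tom-/Pecam1- tumor cells. Gbp8 in muscle measured 3.54, 3.13 and 2.84 in Tom+ cells and 3.07, 4.33 and 3.03 in Tom- cells. Tom-/Pecam1- tumor repeat 4, the day-38 sample, was the exception among the unmarked tumor arrays and lay below the highest Tom- muscle array. In the RefSeq annotation Gbp5, Gbp7, Gbp3 and Gbp2b follow one another with no other coding gene between them, and so do Gbp8, Gbp9, Gbp4, Gbp10 and Gbp6, so that Gbp8 differed from its direct neighbours.

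Of the antiviral effectors, Ifit1, which binds foreign RNA ends, was lowest in Tom- muscle cells. Ifit1 measured 7.54, 8.05, 7.85 and 8.15 in Tom+/Pecam1+ tumor cells, 7.09, 6.74, 7.10 and 6.59 in Tom+/Pecam1- tumor cells and 7.11, 6.96, 6.79 and 7.001 in Tom-/Pecam1- tumor cells. Ifit1 in muscle measured 7.80, 7.81 and 7.88 in Tom+ cells and 5.40, 5.24 and 5.36 in Tom- cells. All 12 tumor arrays lay above all 3 Tom- muscle arrays. Isg15, the ubiquitin-like tag, was highest in Tom+ muscle cells. Isg15 measured 6.87, 7.52, 6.77 and 6.78 in Tom+/Pecam1+ tumor cells, 6.25, 5.82, 6.45 and 6.63 in Tom+/Pecam1- tumor cells and 6.27, 6.06, 6.18 and 5.98 in Tom-/Pecam1- tumor cells. Isg15 in muscle measured 8.23, 7.81 and 7.91 in Tom+ cells and 5.88, 5.35 and 6.30 in Tom- cells. Tom+/Pecam1+ tumor repeat 2 stood well above the other 3 arrays of its population. Oasl2, an Oas-like protein with ubiquitin-like domains, was likewise lowest in Tom- muscle cells. Oasl2 measured 7.75, 7.57, 7.77 and 8.22 in Tom+/Pecam1+ tumor cells, 7.08, 7.26, 7.09 and 6.91 in Tom+/Pecam1- tumor cells and 7.09, 7.09, 7.06 and 6.79 in Tom-/Pecam1- tumor cells. Oasl2 in muscle measured 7.89, 7.91 and 8.15 in Tom+ cells and 5.97, 5.52 and 6.13 in Tom- cells. Both populations with endothelial markers lay above the other 3 in Oasl2. Oas1g behaved differently. Oas1g measured 4.75, 4.70, 5.05 and 5.74 in Tom+/Pecam1+ tumor cells, 4.38, 4.73, 4.42 and 5.23 in Tom+/Pecam1- tumor cells and 6.80, 6.50, 6.46 and 4.96 in Tom-/Pecam1- tumor cells. Oas1g in muscle measured 3.94, 4.10 and 4.27 in Tom+ cells and 4.07, 3.24 and 3.69 in Tom- cells. It was highest in repeats 1 to 3 of Tom-/Pecam1- tumor cells, and repeat 4 of those cells lay within the range of the Tom+/Pecam1+ tumor arrays.

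**Figure D2:**
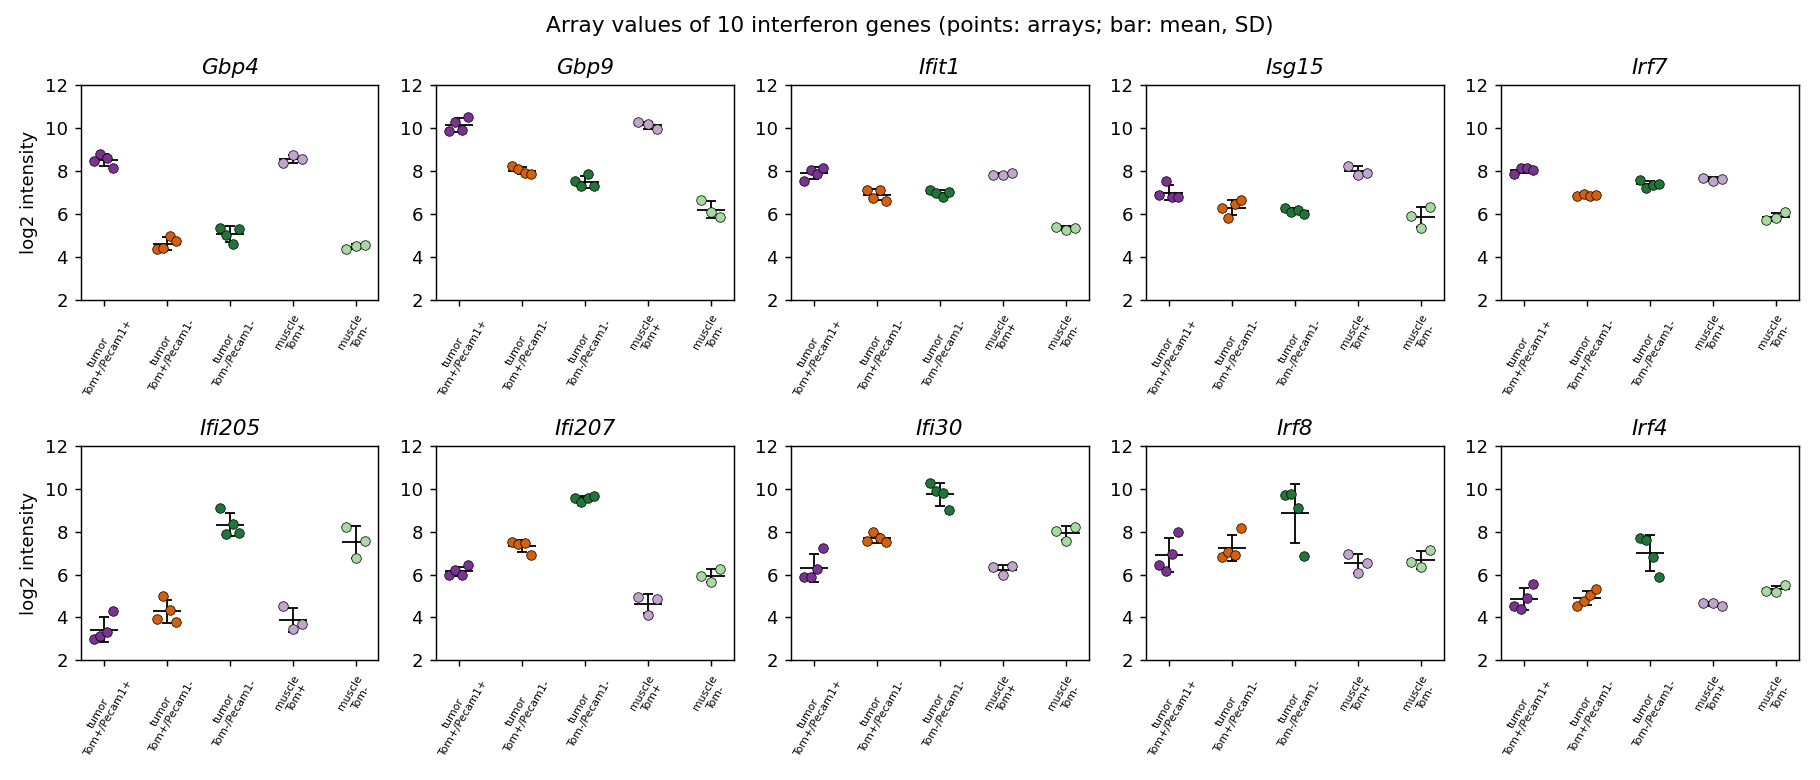
Log2 intensity of 10 members on every array (points, coloured by population, with the mean and SD as bars), chosen after their values were seen. Gbp4 lies at 8.14 to 8.77 in Tom+/Pecam1+ tumor cells and 8.37 to 8.76 in Tom+ muscle cells, and Ifi30 at 8.99 to 10.26 in Tom-/Pecam1- tumor cells.

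In the Ifi200 family, Ifi205 had the widest span of all members. Ifi205 measured 2.99, 3.13, 3.30 and 4.28 in Tom+/Pecam1+ tumor cells, 3.95, 5.01, 4.37 and 3.81 in Tom+/Pecam1- tumor cells and 9.10, 7.90, 8.37 and 7.95 in Tom-/Pecam1- tumor cells. Ifi205 in muscle measured 4.52, 3.48 and 3.68 in Tom+ cells and 8.23, 6.75 and 7.55 in Tom- cells. It was high in the unmarked cells of both tissues and dim in the marked cells of both. Ifi207 was high in unmarked tumor cells. Ifi207 measured 5.97, 6.21, 5.995 and 6.44 in Tom+/Pecam1+ tumor cells, 7.51, 7.42, 7.46 and 6.92 in Tom+/Pecam1- tumor cells and 9.55, 9.39, 9.57 and 9.67 in Tom-/Pecam1- tumor cells. Ifi207 in muscle measured 4.95, 4.12 and 4.86 in Tom+ cells and 5.95, 5.63 and 6.26 in Tom- cells. The Tom-/Pecam1- tumor arrays lay above all others, and repeat 4 was the lowest of the Tom+/Pecam1- tumor arrays. Ifi209 had the same peak. Ifi209 measured 2.39, 2.996, 3.17 and 4.37 in Tom+/Pecam1+ tumor cells, 3.77, 3.79, 3.27 and 3.96 in Tom+/Pecam1- tumor cells and 7.85, 7.22, 7.57 and 5.68 in Tom-/Pecam1- tumor cells. Ifi209 in muscle measured 2.98, 3.09 and 3.11 in Tom+ cells and 3.81, 4.18 and 4.90 in Tom- cells. Repeat 4 was again the lowest unmarked tumor array, still above every array of the other populations. Ifi204 was split by repeat 4. Ifi204 measured 6.45, 6.42, 6.48 and 6.17 in Tom+/Pecam1+ tumor cells, 6.58, 6.67, 6.64 and 4.91 in Tom+/Pecam1- tumor cells and 8.02, 7.96, 7.93 and 9.97 in Tom-/Pecam1- tumor cells. Ifi204 in muscle measured 4.16, 4.39 and 4.43 in Tom+ cells and 5.65, 5.17 and 6.50 in Tom- cells. In repeat 4 the unmarked tumor cells were far above, and the Tom+/Pecam1- cells far below, the other repeats, which the equalised repeat means tie together.

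Ifi202b was below the 40th percentile on every muscle array. Ifi202b measured 5.29, 5.72, 4.86 and 5.37 in Tom+/Pecam1+ tumor cells, 5.40, 5.26, 5.82 and 5.44 in Tom+/Pecam1- tumor cells and 6.55, 6.25, 6.56 and 6.43 in Tom-/Pecam1- tumor cells. Ifi202b in muscle measured 3.12, 2.94 and 3.02 in Tom+ cells and 3.41, 2.94 and 3.01 in Tom- cells. All tumor arrays lay above all muscle arrays, and the 2 tissues came from different strains. Ifi203-ps, marked by its symbol as a pseudogene of the Ifi203 type, had the endothelial pattern, and its signal cannot be assigned between such copies. Ifi203-ps measured 10.92, 11.19, 10.43 and 10.19 in Tom+/Pecam1+ tumor cells, 6.62, 6.47, 6.999 and 6.73 in Tom+/Pecam1- tumor cells and 7.37, 7.24, 7.48 and 7.99 in Tom-/Pecam1- tumor cells. Ifi203-ps in muscle measured 9.67, 10.09 and 9.58 in Tom+ cells and 7.36, 7.42 and 7.51 in Tom- cells. On deposited values its Tom+/Pecam1+ tumor arrays were the highest, and Tom+ muscle cells came next. On centred values these 2 groups overlapped, at 4.755 to 5.77 and 4.54 to 5.01. Ifi30, a lysosomal thiol reductase that prepares antigens in phagocytes, was highest in unmarked tumor cells. Ifi30 measured 5.90, 5.86, 6.25 and 7.25 in Tom+/Pecam1+ tumor cells, 7.58, 7.96, 7.70 and 7.50 in Tom+/Pecam1- tumor cells and 10.26, 9.91, 9.80 and 8.99 in Tom-/Pecam1- tumor cells. Ifi30 in muscle measured 6.33, 5.95 and 6.39 in Tom+ cells and 8.03, 7.54 and 8.20 in Tom- cells. Within muscle it was likewise higher in the unmarked cells. Ifi208, a further Ifi200 gene, ranged over 4.16 to 5.22, 2.86 to 4.06, 3.69 to 5.41, 4.87 to 6.40 and 3.84 to 3.96 in the same order of populations, with overlap among most of them. The probe sets of Ifi200, Gbp and Oas genes, which have close paralogs, may share signal.

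The regulatory factors divided in the same way, given as mean ± SD (n = 4 per tumor and 3 per muscle population). Irf1 averaged 8.95 ± 0.11 in Tom+/Pecam1+ tumor cells, 7.82 ± 0.10 in Tom+/Pecam1- tumor cells, 8.16 ± 0.071 in Tom-/Pecam1- tumor cells, 9.23 ± 0.77 in Tom+ muscle cells and 8.42 ± 0.46 in Tom- muscle cells, and it is an activator of many interferon targets. Irf2 averaged 8.75 ± 0.10 in Tom+/Pecam1+ tumor cells, 7.98 ± 0.22 in Tom+/Pecam1- tumor cells, 8.54 ± 0.16 in Tom-/Pecam1- tumor cells, 8.96 ± 0.017 in Tom+ muscle cells and 8.04 ± 0.038 in Tom- muscle cells, and it binds the same element and often opposes Irf1. Irf9 averaged 7.76 ± 0.10 in Tom+/Pecam1+ tumor cells, 6.90 ± 0.057 in Tom+/Pecam1- tumor cells, 7.15 ± 0.14 in Tom-/Pecam1- tumor cells, 8.20 ± 0.34 in Tom+ muscle cells and 7.03 ± 0.44 in Tom- muscle cells, and it is the DNA-binding partner of Stat2. In all 3 the Tom+ muscle mean was the highest and the Tom+/Pecam1+ tumor mean came next. Irf3 averaged 8.28 ± 0.20 in Tom+/Pecam1+ tumor cells, 8.18 ± 0.20 in Tom+/Pecam1- tumor cells, 7.85 ± 0.055 in Tom-/Pecam1- tumor cells, 8.35 ± 0.054 in Tom+ muscle cells and 7.80 ± 0.067 in Tom- muscle cells, and it is the factor that sensors of foreign nucleic acid activate by phosphorylation. Its means differed by less than 1 over the 5 populations.

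Irf7, an interferon target that in turn drives the interferon-alpha genes, was measured as follows. Irf7 measured 7.87, 8.15, 8.11 and 8.03 in Tom+/Pecam1+ tumor cells, 6.81, 6.92, 6.85 and 6.86 in Tom+/Pecam1- tumor cells and 7.59, 7.21, 7.32 and 7.39 in Tom-/Pecam1- tumor cells. Irf7 in muscle measured 7.68, 7.54 and 7.64 in Tom+ cells and 5.71, 5.79 and 6.07 in Tom- cells. The order by mean was Tom+/Pecam1+ tumor, Tom+ muscle, Tom-/Pecam1- tumor, Tom+/Pecam1- tumor and Tom- muscle cells. On centred values the means of Tom+/Pecam1+ tumor and Tom+ muscle cells were close, at 2.61 and 2.55. The Tom+/Pecam1+ tumor arrays did not overlap the other tumor arrays. Irf8, a factor of the myeloid lineage, was high in 3 of 4 unmarked tumor arrays. Irf8 measured 6.46, 6.17, 6.96 and 7.97 in Tom+/Pecam1+ tumor cells, 6.83, 7.06, 6.92 and 8.14 in Tom+/Pecam1- tumor cells and 9.68, 9.74, 9.09 and 6.86 in Tom-/Pecam1- tumor cells. Irf8 in muscle measured 6.96, 6.06 and 6.53 in Tom+ cells and 6.57, 6.34 and 7.15 in Tom- cells. Unmarked repeat 4 lay below the repeat 4 arrays of both marked populations. Irf4, a factor of lymphocytes and some myeloid cells, had the same low repeat. Irf4 measured 4.52, 4.41, 4.92 and 5.55 in Tom+/Pecam1+ tumor cells, 4.55, 4.75, 5.03 and 5.32 in Tom+/Pecam1- tumor cells and 7.69, 7.61, 6.81 and 5.89 in Tom-/Pecam1- tumor cells. Irf4 in muscle measured 4.69, 4.65 and 4.54 in Tom+ cells and 5.24, 5.21 and 5.51 in Tom- cells. Irf4 was highest in Tom-/Pecam1- tumor cells on every array, with repeat 4 the lowest of them. The mean of the pan-leukocyte markers was lowest in the same sample, at 8.46 against 9.37 to 9.71 in repeats 1 to 3, and highest among the Tom+/Pecam1+ tumor arrays in repeat 4, at 6.84 against 5.62 to 5.85. The equalised repeat means tie the repeat 4 values of the tumor populations together, for these markers as for Irf4 and Irf8, so they are not separate observations. The part of leukocytes in the values of Irf4 and Irf8 was not tested.

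The first comparison asked how marked and unmarked cells of healthy muscle differed. In Tom+ muscle cells 24 of 41 tested members rose and 4 fell relative to Tom- muscle cells. Over all 16011 genes tested, 39.7% were called, 19.1% higher and 20.5% lower, and the median log2 fold change was 0.69 over the members and -0.0022 over all genes. The guanylate-binding proteins rose in 6 of 7: Gbp4 (4.08), Gbp9 (3.95), Gbp5 (3.40), Gbp7 (2.58), Gbp3 (2.34) and Gbp10 (2.02), with adjusted p 2.22e-11 to 1.35e-07. Gbp4 averaged 8.55 ± 0.20 in Tom+ and 4.47 ± 0.10 in Tom- muscle cells (SD, n = 3 each), a 16.9-fold difference, while Gbp8 did not pass (-0.31 ± 0.57, adjusted p = 0.721). All 3 tested Ifit genes rose, namely Ifit1 (2.50), Ifit2 (1.03) and Ifit3 (0.69), and so did Isg15 (2.14 ± 0.24, adjusted p = 1.30e-06). Of 8 Oas genes 5 rose: Oasl2 (2.11), Oas2 (1.86), Oas1b (1.63), Oasl1 (1.44) and Oas1c (0.57). Among the factors Irf7 (1.76 ± 0.11, adjusted p = 1.39e-09), Irf9 (1.17), Irf2 (0.92), Irf1 (0.81) and Irf3 (0.55) rose, and Irf4 and Irf8 had log2 fold changes of -0.69 and -0.17, short of the threshold.

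The 4 members that fell in Tom+ muscle cells were Ifi205 (-3.62 ± 0.43, adjusted p = 2.46e-06), Ifi30 (-1.70 ± 0.33, adjusted p = 4.23e-04), Ifi204 (-1.45 ± 0.50, adjusted p = 0.0291) and Ifi207 (-1.30 ± 0.21, adjusted p = 8.05e-05). Ifi203-ps rose (2.35 ± 0.23, adjusted p = 2.69e-07), as did Ifi208 (1.66 ± 0.45, adjusted p = 0.00728) and Ifi35 (1.22 ± 0.16, adjusted p = 6.74e-06), while Ifi27 (-0.17 ± 0.16, adjusted p = 0.434) and Isg20 (-0.85 ± 0.38, adjusted p = 0.0836), an RNA exonuclease, did not pass. Repeat numbers pair the muscle samples. In a fit of the muscle arrays alone with the repeat as a block 7 members fell. Added were Ifi209 (-1.24, adjusted p = 0.00232), Irf4 (-0.69, adjusted p = 0.00618) and Isg20l2 (-0.37, adjusted p = 0.0471). Irf2bp2, which had risen by 0.31, lost its call (0.31, adjusted p = 0.0685). The muscle arrays fitted alone without the block also called Ifi209 (adjusted p = 0.00458) and Irf4 (adjusted p = 0.0028) lower. In that fit Irf2bp2 (adjusted p = 0.121) and Irf1 (adjusted p = 0.133) did not pass. Ifi204 lost its call without any 1 of Tom+ muscle repeats 1, 2 and 3 and Tom- muscle repeats 1 and 3 (adjusted p = 0.141 without Tom- muscle repeat 3). Ifi208 lost its call without Tom+ muscle repeat 2 (1.24, adjusted p = 0.0512). Irf1 lost its call without any 1 of Tom+ muscle repeats 1 and 3 and Tom- muscle repeat 2 (adjusted p = 0.154 without Tom+ muscle repeat 1). Oas1c lost its call without Tom+ muscle repeat 3 (0.40, adjusted p = 0.0797). Irf2bp2 lost its call without any 1 of Tom+ muscle repeats 1 and 2 and Tom- muscle repeats 1 and 3 (adjusted p = 0.207 without Tom- muscle repeat 3). Isg20 passed the threshold without Tom- muscle repeat 1 (-1.29, adjusted p = 0.00966). The groups did not overlap for 31 members, against 48.6% of all genes. Endothelial markers moved with this comparison, 10 of 10 higher in Tom+ cells, and so did pan-leukocyte markers, 5 of 8 lower, fibroblast markers, 7 of 7 lower, myogenic markers, 6 of 6 lower, and macrophage and monocyte markers, 6 of 10 lower. Their part in the member results was not tested, and in such sorted mixtures fewer cells of a type and less RNA per cell cannot be told apart.

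The next comparison set marked cells with Pecam1 against the marked and unmarked tumor cells without it, and both share the same 4 Tom+/Pecam1+ arrays. Against Tom+/Pecam1- cells 21 of 41 members rose and 2 fell in Tom+/Pecam1+ cells, with 44.6% of all genes called, 21% higher and 23.6% lower. Against Tom-/Pecam1- cells 21 rose and 10 fell, with 41.7% of all genes called, 20.5% higher and 21.2% lower. Median log2 fold changes of the members were 0.37 and 0.35, and of all genes 0.0052 and 0.022. The same 6 Gbp genes rose in both: Gbp4 by 3.88 and 3.43, Gbp9 by 2.12 and 2.64, Gbp5 by 2.29 and 1.997, Gbp7 by 1.67 and 1.21, Gbp3 by 1.39 and 1.07, and Gbp10 by 1.11 and 1.25. Gbp4 averaged 8.49 ± 0.27 in Tom+/Pecam1+, 4.61 ± 0.29 in Tom+/Pecam1- and 5.06 ± 0.35 in Tom-/Pecam1- tumor cells (SD, n = 4 each), 14.8-fold and 10.8-fold higher (adjusted p 1.08e-11 and 5.12e-11). Ifi203-ps rose by 3.98 and 3.16, Ifit1 by 1.02 and 0.93, Ifit3 by 0.37 and 0.41, and Oas1b by 1.01 and 0.90. Isg15 rose by 0.70 and 0.86, Oasl2 by 0.74 and 0.82, Oas1c by 0.52 and 0.50, and Ifi35 by 0.84 and 0.62. Ifit2 passed in neither (0.20 and 0.054), nor did Isg20 (-0.045 and -0.51), and Ifi27 did not pass against Tom+/Pecam1- cells (0.10).

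Of the factors, Irf7 rose by 1.18 and 0.66, Irf1 by 1.13 and 0.79, and Irf9 by 0.86 and 0.61, against Tom+/Pecam1- and Tom-/Pecam1- cells in that order. Irf2 and Oas2 rose against Tom+/Pecam1- cells (0.76 and 1.04) and did not pass against Tom-/Pecam1- cells (0.20 and 0.17), while Irf3 passed against Tom-/Pecam1- cells (0.44) and not against Tom+/Pecam1- cells (0.11), where Irf4 (-0.066) and Irf8 (-0.35) did not pass either. Against Tom+/Pecam1- cells Ifi30 (-1.37 ± 0.28, adjusted p = 7.29e-04) and Ifi207 (-1.17 ± 0.18, adjusted p = 4.75e-05) fell. Against Tom-/Pecam1- cells the falls were larger in size for Ifi205 (-4.90 ± 0.37, adjusted p = 8.08e-09), Ifi209 (-3.85 ± 0.42, adjusted p = 7.68e-07), Ifi30 (-3.42 ± 0.28, adjusted p = 2.55e-08) and Ifi207 (-3.39 ± 0.18, adjusted p = 9.74e-11). Irf4 (-2.15), Ifi204 (-2.09), Irf8 (-1.95), Gbp8 (-1.55), Ifi202b (-1.14) and Oas1g (-1.12) also fell there, with adjusted p 1.62e-05 to 0.0185. The repeat was also fitted as a block, on the compared arrays alone. Isg15 and Oasl1 then lost their calls against Tom+/Pecam1- cells (adjusted p 0.0686 to 0.0815). Gbp8, Ifi27, Ifi35, Ifit3, Irf2bp1, Irf2bpl, Irf3, Irf8, Oas1c and Oas1g lost theirs against Tom-/Pecam1- cells (adjusted p 0.0609 to 0.273). Of these, Gbp8 (adjusted p = 0.067) and Ifi27 (adjusted p = 0.114) also lost their calls on those arrays without the block, where Isg20 passed (-0.51, adjusted p = 0.0436). Ifi208 rose against Tom+/Pecam1- cells (1.06 ± 0.39, adjusted p = 0.0371) and Ifi27 against Tom-/Pecam1- cells (0.36 ± 0.14, adjusted p = 0.0427). Ifi208 lost its call without any 1 of Tom+/Pecam1+ tumor repeats 1, 2 and 4 and Tom+/Pecam1- tumor repeat 1 (adjusted p = 0.136 without Tom+/Pecam1- tumor repeat 1). Ifi27 lost its call without any 1 of Tom+/Pecam1+ tumor repeats 1 and 4 and Tom-/Pecam1- tumor repeats 1, 2 and 4 (adjusted p = 0.161 without Tom+/Pecam1+ tumor repeat 4). Gbp8 lost its call without any 1 of Tom+/Pecam1+ tumor repeat 1 and Tom-/Pecam1- tumor repeats 1 and 3 (adjusted p = 0.0728 without Tom-/Pecam1- tumor repeat 1). All 10 endothelial markers were higher in both comparisons, 9 of 10 macrophage and monocyte markers were lower against Tom+/Pecam1- cells and 10 of 10 against Tom-/Pecam1- cells, and all 7 fibroblast, 6 myogenic and 6 pericyte and smooth muscle markers were lower in both. The groups did not overlap for 22 members against Tom+/Pecam1- cells and 28 against Tom-/Pecam1- cells, with 42.6% and 37.6% of all genes.

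Among tumor cells without Pecam1, the comparison of marked with unmarked cells ran mostly downward. In Tom+/Pecam1- cells 15 of 41 members fell and 2 rose relative to Tom-/Pecam1- cells, with 25.4% of all genes called, 12% lower and 13.4% higher, and a median log2 fold change of -0.34 over members and 0.028 over all genes. Ifi205 (-4.04 ± 0.37, adjusted p = 1.82e-06), Ifi209 (-3.38 ± 0.42, adjusted p = 2.70e-05), Ifi204 (-2.27 ± 0.43, adjusted p = 0.00105) and Ifi207 (-2.22 ± 0.18, adjusted p = 6.33e-07) fell, and with Ifi202b (-0.97) and Ifi203-ps (-0.81) they made 6 of 7 Ifi200 genes. Ifi30 averaged 7.68 ± 0.20 in Tom+/Pecam1- and 9.74 ± 0.54 in Tom-/Pecam1- tumor cells (SD, n = 4 each), 4.15-fold lower (-2.05 ± 0.28, adjusted p = 7.42e-05). Of the factors Irf4 (-2.09 ± 0.32, adjusted p = 1.72e-04), Irf8 (-1.60 ± 0.53, adjusted p = 0.0337), Irf2 (-0.56 ± 0.10, adjusted p = 7.85e-04) and Irf7 (-0.52 ± 0.10, adjusted p = 9.87e-04) fell, and Irf3 rose (0.33 ± 0.11, adjusted p = 0.0298). Irf1 (-0.34) and Irf9 (-0.25) did not pass. Oas1g (-1.49), Oas2 (-0.87), Oas3 (-0.48) and Gbp7 (-0.46) fell, and Gbp9 rose (0.52 ± 0.18, adjusted p = 0.0449). Several members that had risen in Tom+ muscle cells did not pass here, with log2 fold changes of -0.45 for Gbp4, -0.084 for Ifit1, 0.16 for Isg15, 0.075 for Oasl2, -0.23 for Ifi35, -0.14 for Ifit2 and 0.038 for Ifit3. Ifi27 (0.27) and Isg20 (-0.46), which had not passed in muscle, did not pass here either.

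These calls were sensitive to the fit and to the arrays used. In a fit of the compared arrays alone with the repeat number as a block, 0 members rose and 8 fell. The calls of Gbp7, Gbp9, Ifi204, Irf2, Irf3, Irf8, Oas1g, Oas2 and Oas3 were lost, at adjusted p 0.0541 to 0.184. In that fit 11.4% of all genes were called in either direction, against 25.4% in the main fit. Without the block, the same arrays fitted alone also lost the calls of Irf8 (adjusted p = 0.0796) and Oas3 (adjusted p = 0.0642), and Irf1 passed as lower (-0.34, adjusted p = 0.0156). Gbp9 lost its call without any 1 of Tom+/Pecam1- tumor repeats 1, 2, 3 and 4 and Tom-/Pecam1- tumor repeats 1, 2 and 4 (adjusted p = 0.134 without Tom+/Pecam1- tumor repeat 1). Irf3 lost its call without any 1 of Tom+/Pecam1- tumor repeats 1 and 4 and Tom-/Pecam1- tumor repeat 1 (adjusted p = 0.107 without Tom+/Pecam1- tumor repeat 4). Irf8 lost its call without any 1 of Tom+/Pecam1- tumor repeats 1, 2 and 3 and Tom-/Pecam1- tumor repeats 1, 2 and 3 (adjusted p = 0.116 without Tom-/Pecam1- tumor repeat 1). Oas3 lost its call without any 1 of Tom+/Pecam1- tumor repeat 1 and Tom-/Pecam1- tumor repeat 1 (adjusted p = 0.091 without Tom-/Pecam1- tumor repeat 1). Gbp8 passed the threshold without Tom-/Pecam1- tumor repeat 4 (-1.75, adjusted p = 0.00506). Gbp4 passed the threshold without any 1 of Tom+/Pecam1- tumor repeat 3 and Tom-/Pecam1- tumor repeat 3 (adjusted p = 0.0133 without Tom-/Pecam1- tumor repeat 3). Without the day-38 repeat 4 in all populations, Gbp8 fell (-1.91, adjusted p = 8.87e-04) and Gbp9 did not pass (0.50, adjusted p = 0.0814). The groups did not overlap for 17 members, against 27.8% of all genes. Leukocyte markers moved with the same comparison: 8 of 8 pan-leukocyte, 10 of 10 macrophage and monocyte, 5 of 5 tested neutrophil and 6 of 6 tested lymphocyte markers were lower in Tom+/Pecam1- cells, while 6 of 6 myogenic markers were higher. Their part in the falls of Ifi200 genes, Ifi30, Irf4 and Irf8 was not tested. The plot of members beside leukocyte markers shows that Ifi205, Ifi209, Ifi30 and Irf8 had their highest values among the Tom-/Pecam1- tumor arrays, where these markers were highest. Irf8 was not high in repeat 4 of those cells. On centred values Ifi205 was -1.61 to -0.40 in Tom+/Pecam1- tumor cells and 1.64 to 3.14 in Tom- muscle cells. The centred pan-leukocyte means of these 2 populations overlapped, at 1.61 to 2.01 and 1.73 to 1.87. Those of macrophage and monocyte markers (2.89 to 3.30 and 1.90 to 2.20) and of neutrophil markers (-0.87 to -0.12 and 0.57 to 1.37) did not. The part of these cells in the Ifi205 values was not tested. Gbp4, Gbp9, Ifit1 and Isg15 were highest in the 2 populations with the lowest mean of the pan-leukocyte markers.

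**Figure D3:**
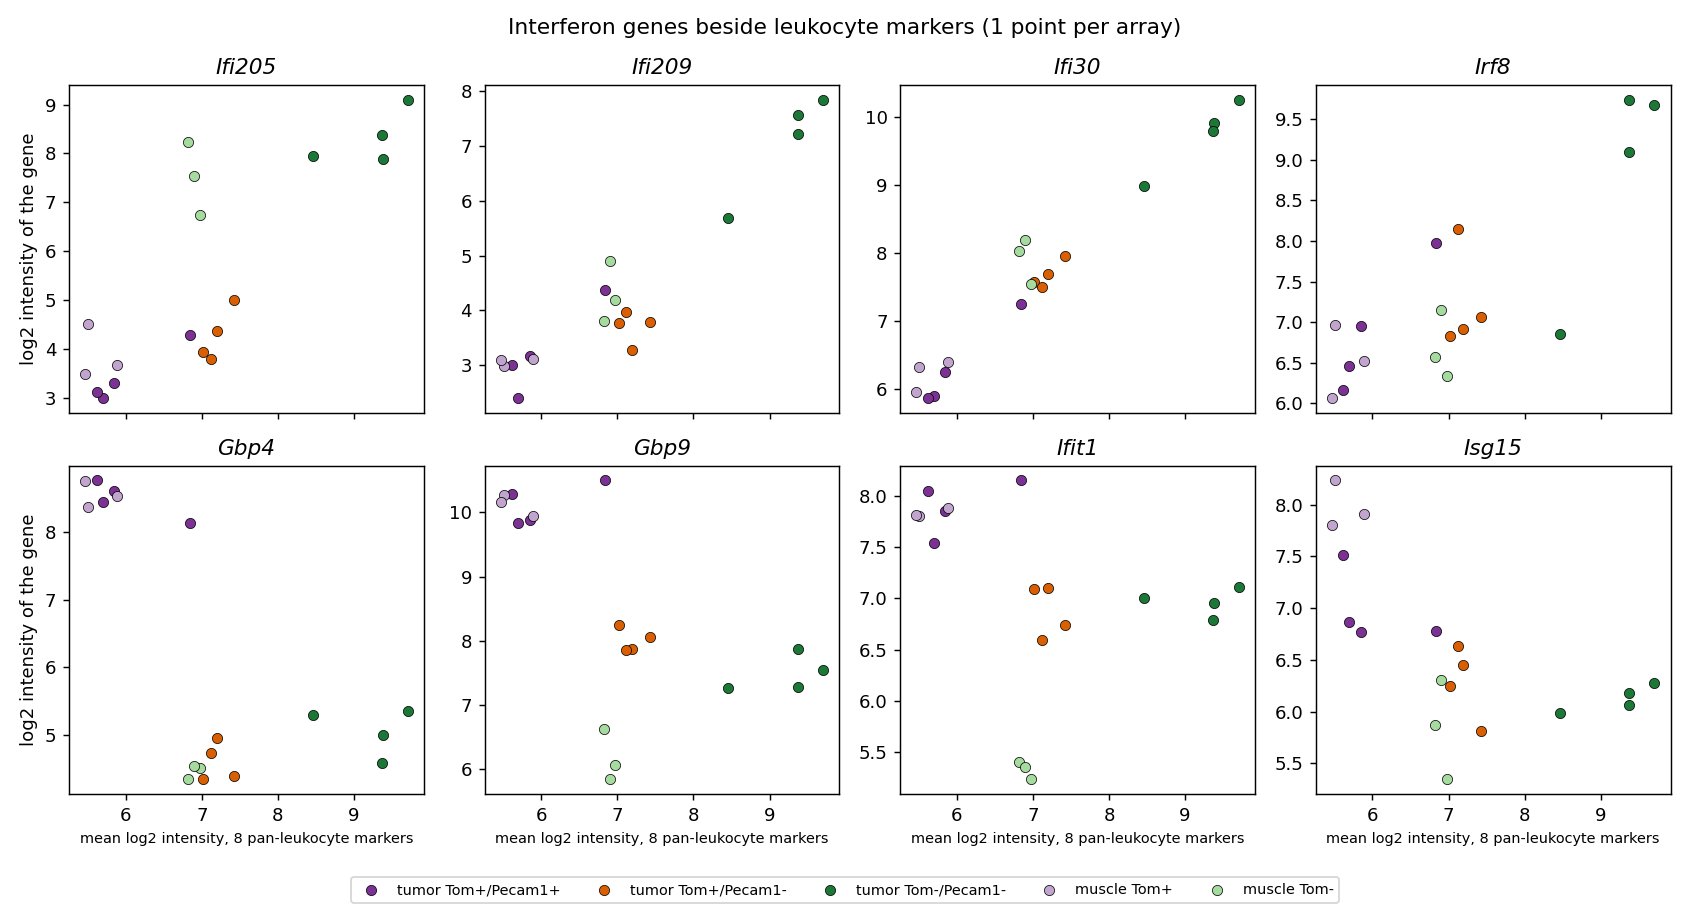
Log2 intensity of 8 members (y axis) beside the mean log2 intensity of 8 pan-leukocyte markers (x axis) on the 18 arrays, coloured by population. Tom-/Pecam1- tumor cells lie at 8.46 to 9.71 on the x axis and hold the highest Ifi205, Ifi209, Ifi30 and Irf8 values, and points of 1 population share a sort.

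The difference between marked and unmarked cells was itself compared between tumor and muscle, with the muscle gates (Tom alone) and the tumor gates (Tom within Pecam1-) not the same. The difference was lower in tumor than in muscle for 28 of 41 members and higher for 0 at the adjusted threshold of limma's test, with 39.5% of all genes called, 18.5% lower and 20.9% higher, and the median was -1.42 over the members and 0.0085 over all genes. At an unadjusted p under 0.05 the difference was higher for 1 member, the look-alike Irf2bp1 (0.42). The members with the lowest values were Gbp4 (-4.54), Gbp5 (-3.70), Gbp9 (-3.43), Ifi203-ps (-3.17), Gbp7 (-3.03) and Oas2 (-2.73), with adjusted p 2.66e-10 to 3.71e-07, so that Gbp4, for example, had a mark difference of -0.45 in tumor and 4.08 in muscle. Ifit1 (-2.58 ± 0.20, adjusted p = 2.74e-08), Irf7 (-2.28 ± 0.15, adjusted p = 3.65e-09), Isg15 (-1.98 ± 0.32, adjusted p = 8.89e-05) and Irf9 (-1.42 ± 0.24, adjusted p = 1.34e-04) followed, and Irf8 (-1.43 ± 0.81, adjusted p = 0.174), Irf3 (-0.22 ± 0.16, adjusted p = 0.308) and Ifi30 (-0.35 ± 0.43, adjusted p = 0.554) did not pass. Ifi30 thus had mark differences of -2.05 in tumor and -1.70 in muscle, and Ifi205 of -4.04 and -3.62, with a difference of -0.43 ± 0.57, adjusted p = 0.59. The difference was also lower for Ifi208 (-2.29), Oasl2 (-2.03), Oas1b (-1.74), Irf2 (-1.48), Irf4 (-1.39), Irf1 (-1.15), Ifi35 (-1.44), Ifit2 (-1.17), Ifi202b (-0.87) and Ifit3 (-0.66), and Ifi27 (0.44) and Isg20 (0.39) did not pass. Irf1 lost its call without Tom- muscle repeat 2 (-0.89, adjusted p = 0.0537). Irf4 lost its call without any 1 of Tom+/Pecam1- tumor repeats 1 and 2, Tom-/Pecam1- tumor repeats 1 and 2, Tom+ muscle repeats 1 and 2 and Tom- muscle repeats 1 and 2 (adjusted p = 0.0635 without Tom-/Pecam1- tumor repeat 2). Oas1c lost its call without any 1 of Tom+/Pecam1- tumor repeats 1, 2 and 4, Tom-/Pecam1- tumor repeats 1, 2 and 3, Tom+ muscle repeat 3 and Tom- muscle repeats 1 and 2 (adjusted p = 0.146 without Tom+ muscle repeat 3). Irf8 passed the threshold without Tom-/Pecam1- tumor repeat 4 (-2.10, adjusted p = 0.00712). Irf2bp1 passed the threshold without any 1 of Tom-/Pecam1- tumor repeat 3 and Tom+ muscle repeat 2 (adjusted p = 0.0336 without Tom+ muscle repeat 2). Endothelial markers, 10 of 10 with a lower difference in tumor, moved with these members: their mean was 6.15 to 6.47 in Tom+/Pecam1- tumor cells and 10.36 to 10.52 in Tom+ muscle cells. The difference was also lower for 5 of 5 tested neutrophil, 4 of 4 tested mast cell and 4 of 7 dendritic cell markers. It was higher for 7 of 7 fibroblast, 6 of 6 myogenic and 3 of 6 pericyte and smooth muscle markers. The part of all these markers was not tested. Gate and tissue cannot be told apart in this contrast.

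**Figure D4:**
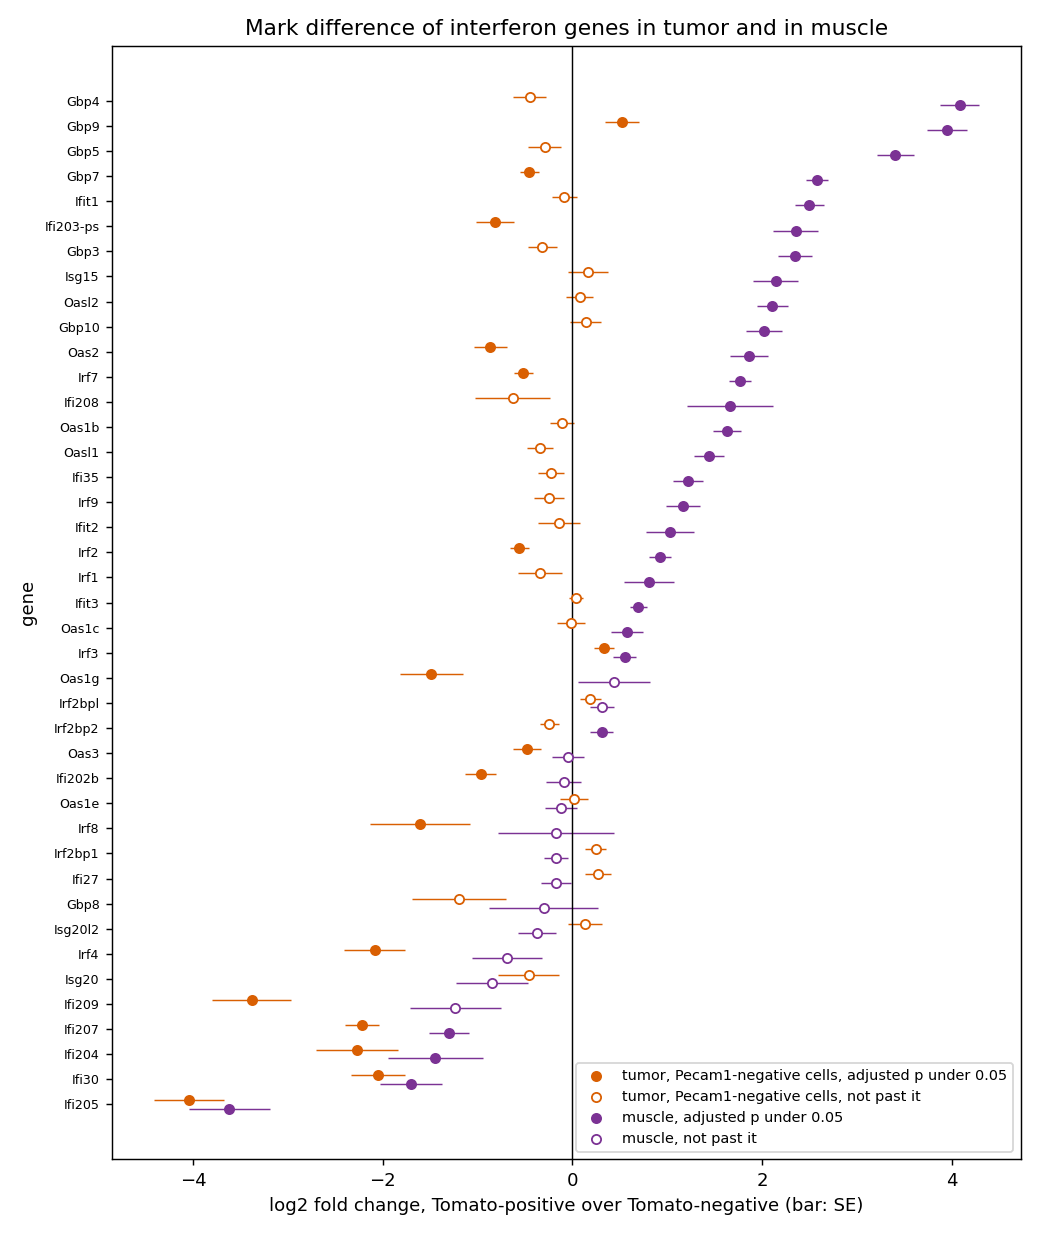
Log2 fold change of Tom+ over Tom- cells (x axis, bars are SE) for the 41 tested members (y axis) in tumor cells without Pecam1 (orange) and in muscle (purple), filled where the adjusted p is under 0.05. Gbp4 lies at -0.45 in tumor and 4.08 in muscle, and Ifi205 at -4.04 and -3.62.

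Tumor was then compared with muscle on values centred on the array median. Tissue, age, strain, SmoM2 and normalization all differ between them and cannot be told apart. Between the populations with endothelial markers, 6 of 41 members rose and 12 fell in Tom+/Pecam1+ tumor cells relative to Tom+ muscle cells, with 34.2% of all genes called, 15.7% higher and 18.5% lower, and a median of -0.22 over members and -0.026 over all genes. Isg15 averaged 1.55 above its array median in Tom+/Pecam1+ tumor cells and 2.91 in Tom+ muscle cells (-1.36 ± 0.23, adjusted p = 2.53e-04). Oas1c (-1.60 ± 0.16, adjusted p = 1.78e-06), Gbp5 (-1.15 ± 0.18, adjusted p = 1.47e-04), Oas2 (-0.96), Oas1b (-0.93), Gbp7 (-0.92 ± 0.11, adjusted p = 8.23e-06), Gbp3 (-0.54) and Oasl2 (-0.51) fell, and so did Ifit2 (-0.68), Irf9 (-0.79 ± 0.17, adjusted p = 0.00191), Irf2 (-0.57) and Irf3 (-0.42). Ifi202b (1.93 ± 0.17, adjusted p = 5.31e-07), Ifi204 (1.70 ± 0.47, adjusted p = 0.0108), Oas1e (1.33 ± 0.15, adjusted p = 7.23e-06) and Ifi207 (1.15 ± 0.20, adjusted p = 3.54e-04) rose, as did the look-alikes Irf2bp1 (0.44) and Irf2bp2 (0.48). Gbp4 (-0.42), Gbp9 (-0.35), Gbp10 (-0.22), Ifit1 (-0.29), Ifit3 (0.069), Ifi35 (0.13), Ifi30 (-0.26), Ifi27 (0.15), Isg20 (-0.19), Irf1 (-0.63), Irf4 (-0.13), Irf8 (0.017) and Irf7 (0.066) did not pass. Centring decided much of this split: the tumor median lay 0.354 above that of muscle, and on the deposited values 14 members rose and 7 fell. Centring moves every gene of an array alike, so this shift in counts is not particular to the members. The calls of Gbp3, Ifit2, Irf2, Irf3 and Oasl2 were lost on deposited values, and Ifi203-ps (0.90), Ifi27 (0.51), Ifi35 (0.48), Ifit3 (0.42), Irf7 (0.42), Isg20l2 (0.75), Oas1g (0.95) and Oas3 (0.46) passed as higher (adjusted p 4.41e-04 to 0.0339). Isg15, Gbp5, Gbp7, Oas1b, Oas1c, Oas2 and Irf9 fell on both scales. With the replicate block Irf1 passed as lower (-0.63, adjusted p = 0.00616). Between tissues that block takes variation between muscle repeats out of the error, which makes p-values tend to be too small. Irf1 varied between those repeats, at 9.99, 8.44 and 9.25 in Tom+ muscle cells. Gbp3 lost its call without any 1 of Tom+/Pecam1+ tumor repeats 1 and 2 and Tom+ muscle repeat 1 (adjusted p = 0.0686 without Tom+ muscle repeat 1). Ifit2 lost its call without any 1 of Tom+/Pecam1+ tumor repeats 3 and 4 and Tom+ muscle repeats 1, 2 and 3 (adjusted p = 0.11 without Tom+/Pecam1+ tumor repeat 4). Oasl2 lost its call without any 1 of Tom+/Pecam1+ tumor repeat 2 and Tom+ muscle repeat 3 (adjusted p = 0.105 without Tom+ muscle repeat 3). Irf2bp1 lost its call without Tom+ muscle repeat 1 (0.33, adjusted p = 0.0608). Irf1 passed the threshold without Tom+ muscle repeat 2 (-1.03, adjusted p = 0.0016). The groups did not overlap for 19 members, against 37.2% of all genes. In this pair 4 of 7 fibroblast, 1 of 10 endothelial and 1 of 8 pan-leukocyte markers were higher, and 4 of 6 pericyte and smooth muscle and 3 of 10 macrophage and monocyte markers were lower, and their part was not tested.

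**Figure D5:**
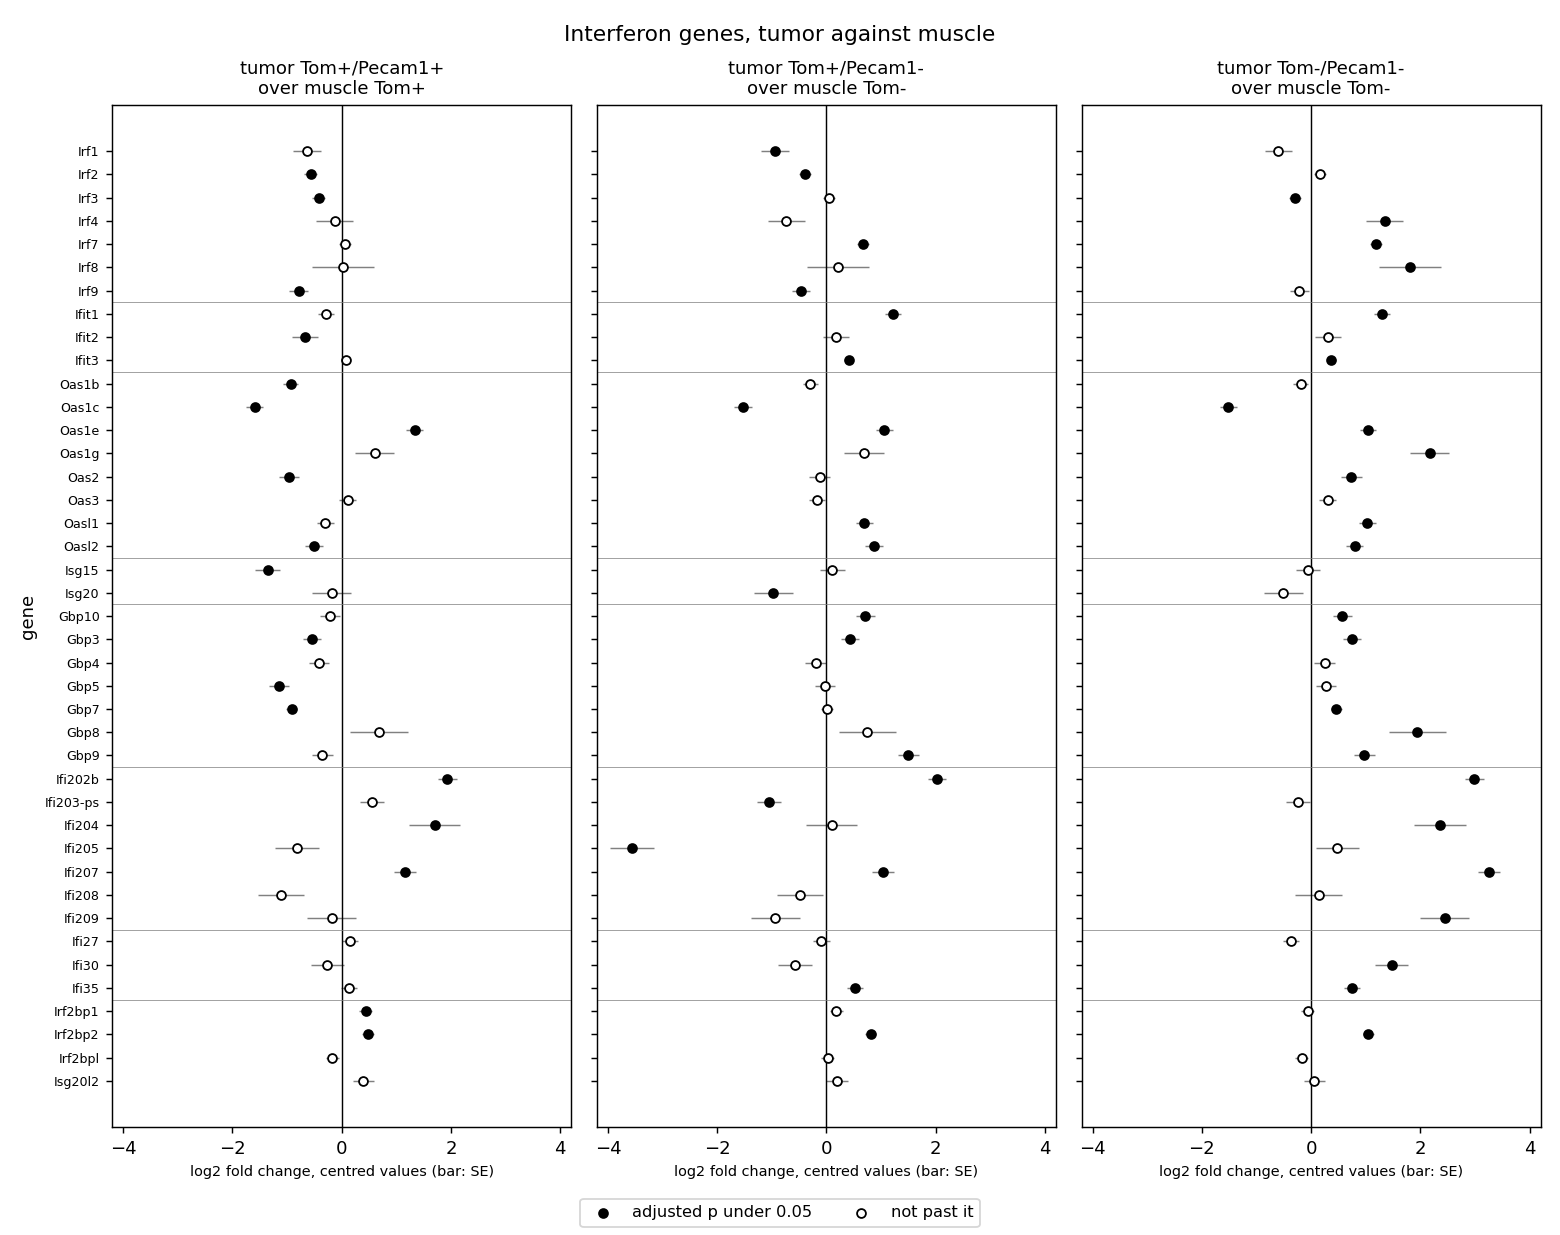
Log2 fold change on centred values (x axis, bars are SE) of the 41 tested members (y axis, by family) for tumor over muscle in 3 pairs of populations, filled where the adjusted p is under 0.05. Isg15 lies at -1.36 in the pair with endothelial markers, and Ifi202b at 1.93, 2.03 and 2.99 from left to right.

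The 2 tumor populations without Pecam1 were set against the same 3 Tom- muscle arrays. In Tom-/Pecam1- tumor cells 22 of 41 members rose and 2 fell, with 48.7% of all genes called, 23.8% higher and 24.9% lower. In Tom+/Pecam1- tumor cells 13 rose and 7 fell, or 48.8% of the tested members. This was near the 47.1% called over all genes, 24.1% higher and 23% lower. Median log2 fold changes in Tom-/Pecam1- and Tom+/Pecam1- tumor cells were 0.48 and 0.093 over the members, and -0.018 and 0.0095 over all genes. In Tom-/Pecam1- tumor cells the largest rises were those of Ifi207 (3.26), Ifi202b (2.99), Ifi209 (2.44), Ifi204 (2.36) and Oas1g (2.17), with adjusted p 1.66e-09 to 6.04e-04. Ifi30 (1.48 ± 0.31, adjusted p = 7.79e-04), Irf8 (1.82 ± 0.57, adjusted p = 0.0141), Irf4 (1.35 ± 0.34, adjusted p = 0.00375), Ifit1 (1.29 ± 0.14, adjusted p = 1.75e-06) and Irf7 (1.18 ± 0.11, adjusted p = 2.42e-07) rose too, as did Gbp8 (1.95), Gbp9 (0.98), Gbp3 (0.75), Gbp10 (0.57) and Gbp7 (0.46). Oasl1 (1.03), Oas1e (1.04), Oasl2 (0.80) and Oas2 (0.74) rose, Oas1c fell (-1.51 ± 0.16, adjusted p = 1.21e-06), and Irf3 fell on the centred scale (-0.29 ± 0.12, adjusted p = 0.0459) while its log2 fold change on deposited values was 0.046, adjusted p = 0.748. Isg15 (-0.055), Gbp4 (0.25), Irf1 (-0.60), Irf2 (0.17) and Irf9 (-0.21) did not pass. On deposited values, where the differences of all genes lie higher by the same amount, 27 members rose and 1 fell. Gbp4 (0.59), Gbp5 (0.61), Ifit2 (0.65), Irf2 (0.50) and Oas3 (0.64) passed as higher there (adjusted p 9.91e-04 to 0.0265). With the replicate block Irf1 passed as lower (-0.60, adjusted p = 0.00448), a p-value that tends to be too small for the reason given above. In this pair 8 of 8 pan-leukocyte, 10 of 10 macrophage and monocyte and 5 of 5 neutrophil markers were higher, and 9 of 10 endothelial, 5 of 6 myogenic and 4 of 6 pericyte and smooth muscle markers were lower in tumor, and their part was not tested. Ifi35 (0.75) and Ifit3 (0.37) rose, and Ifi27 (-0.36), Ifit2 (0.31) and Isg20 (-0.51) did not pass. Gbp10 lost its call without Tom- muscle repeat 2 (0.43, adjusted p = 0.084). Irf3 lost its call without any 1 of Tom-/Pecam1- tumor repeats 1, 2, 3 and 4 and Tom- muscle repeats 1, 2 and 3 (adjusted p = 0.118 without Tom- muscle repeat 2). Irf8 lost its call without Tom- muscle repeat 2 (1.63, adjusted p = 0.056). Irf1 passed the threshold without Tom- muscle repeat 2 (-0.87, adjusted p = 0.012). Irf9 passed the threshold without Tom- muscle repeat 2 (-0.46, adjusted p = 0.0206). Isg20 passed the threshold without Tom- muscle repeat 1 (-0.95, adjusted p = 0.0359). Ifi27 passed the threshold without any 1 of Tom-/Pecam1- tumor repeat 3 and Tom- muscle repeat 2 (adjusted p = 0.0359 without Tom-/Pecam1- tumor repeat 3).

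In Tom+/Pecam1- tumor cells Ifi202b (2.03 ± 0.17, adjusted p = 8.28e-08), Gbp9 (1.50 ± 0.19, adjusted p = 8.45e-06), Ifit1 (1.21 ± 0.14, adjusted p = 3.23e-06), Oas1e (1.06), Ifi207 (1.04), Oasl2 (0.88), Gbp10 (0.71), Oasl1 (0.70), Irf7 (0.67), Ifi35 (0.52) and Ifit3 (0.41) rose relative to Tom- muscle cells. Ifi205 (-3.56 ± 0.40, adjusted p = 1.83e-06), Oas1c (-1.52 ± 0.16, adjusted p = 9.93e-07), Ifi203-ps (-1.06), Isg20 (-0.97), Irf1 (-0.94 ± 0.25, adjusted p = 0.00561), Irf9 (-0.46) and Irf2 (-0.39) fell, and Isg15 (0.11), Irf3 (0.044), Irf4 (-0.74) and Irf8 (0.22) did not pass. Gbp3 also rose (0.43). Ifi27 (-0.094), Ifi30 (-0.57) and Ifit2 (0.17) did not pass. Gbp3 lost its call without any 1 of Tom+/Pecam1- tumor repeats 1 and 2 and Tom- muscle repeats 2 and 3 (adjusted p = 0.267 without Tom- muscle repeat 2). Irf9 lost its call without any 1 of Tom+/Pecam1- tumor repeats 1, 3 and 4 and Tom- muscle repeats 1 and 3 (adjusted p = 0.219 without Tom- muscle repeat 1). Isg20 lost its call without any 1 of Tom+/Pecam1- tumor repeats 1, 2 and 3 and Tom- muscle repeat 3 (adjusted p = 0.286 without Tom- muscle repeat 3). On deposited values, where the differences of all genes lie higher by the same amount, 19 members rose and 4 fell. Irf2, Irf9 and Isg20 did not pass, and Gbp7 (0.35), Irf2bp1 (0.52), Irf2bpl (0.36), Irf3 (0.38), Isg20l2 (0.53) and Oas1g (1.02) passed as higher (adjusted p 0.00107 to 0.0231). In this pair 7 of 10 macrophage and monocyte markers were higher, and 10 of 10 endothelial, 5 of 6 lymphocyte, 4 of 4 mast cell, 4 of 5 neutrophil and 4 of 6 pericyte and smooth muscle markers were lower in tumor, and their part was not tested. Groups did not overlap for 22 members in Tom-/Pecam1- and 21 in Tom+/Pecam1- tumor cells against Tom- muscle cells, with 48.9% and 51% of all genes.

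The rest of the pathway was read from 5 lists that overlap with none of the members, beside the shares of all genes given above. Of the other interferon-induced antiviral genes, 22 rose and 0 fell of 24 tested in Tom+ against Tom- muscle cells (median 1.68), and 20 rose and 0 fell of 24 tested in Tom+/Pecam1+ against Tom+/Pecam1- tumor cells (median 1.15). Examples in muscle were Parp14 (2.47), an ADP-ribosyltransferase, Rnf213 (1.71), a ubiquitin ligase, and Samd9l (1.68). Between Tom+/Pecam1+ tumor and Tom+ muscle cells 1 gene of the same list rose and 14 fell (median -0.48), with Bst2 (-1.88), which tethers virus particles to the cell surface, Samd9l (-1.19) and Herc6 (-0.69), a ligase that attaches Isg15, lower and Mx1 (1.10), an antiviral GTPase, higher. Of the interferon-gamma GTPases and antigen-processing genes, 17 rose and 0 fell of 19 tested in muscle (median 1.23), 16 rose and 0 fell of 19 tested in Tom+/Pecam1+ against Tom+/Pecam1- tumor cells (median 0.90) and 1 rose and 11 fell of 19 tested in Tom+/Pecam1- against Tom-/Pecam1- tumor cells (median -0.48). Igtp, an immunity-related GTPase, rose by 1.91 in Tom+ muscle cells, Tapbp, which loads peptides onto class I molecules, by 1.20, and Cxcl9, a chemokine that attracts T cells, by 2.95. In Tom+/Pecam1- against Tom-/Pecam1- tumor cells the class I gene H2-K1 (-1.09), the immunoproteasome subunit gene Psmb8 (-1.15) and Ciita (-1.41), the activator of class II genes, fell.

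Of ligands and receptors, 5 rose and 0 fell of 12 tested in muscle, namely the receptor chains Il10rb (1.70), Ifngr1 (1.07), Ifnar2 (0.97) and Ifnar1 (0.96) and the ligand gene Ifna1 (0.37). In Tom+/Pecam1- against Tom-/Pecam1- tumor cells Ifngr1 (-0.73), Il10rb (-0.75), Ifng (-1.17) and Ifnb1 (-1.79) fell, and 0 rose. Of transducers and brakes, 5 rose and 0 fell of 10 tested in muscle, with Usp18 (1.87), which removes Isg15 from proteins and dampens the receptor, Stat2 (1.55) and the kinases Jak2 (0.73), Tyk2 (0.78) and Jak1 (0.34). In Tom+/Pecam1- against Tom-/Pecam1- tumor cells the phosphatase gene Ptpn6 (-2.13), Jak2 (-0.59) and Usp18 (-0.38) fell. Of nucleic acid sensors and adaptors, 7 rose and 1 fell of 16 tested in muscle, with the RNA sensors Ddx58 (1.80) and Ifih1 (2.10) and the adaptor Sting1 (2.40) higher and the kinase gene Ikbke (-0.62) lower. In Tom+/Pecam1- against Tom-/Pecam1- tumor cells 0 rose and 11 fell of 16 tested, among them Tlr7 (-1.85), Aim2 (-1.80) and Zbp1 (-0.95), and the leukocyte markers given above moved with them.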

How the data were processed

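RNA of 18 sorted samples was amplified and hybridised to 1 array each, per the labels' protocols. The authors deposited log2 intensities for 41345 probe sets, and RMA and Partek are named in the submitters' processing notes. RMA subtracts background, equalises array distributions and summarises probes, so small differences between dim genes are compressed. The genome build is not given in the sources used here. Precision is limited by how many arrays each group has. A probe set was used where the platform annotation paired it with exactly 1 symbol. Genes under the 40th percentile filter were left out, which kept 16011 of 22180. limma 3.58.1 (R 4.3.3) fitted 1 mean per group over all arrays, with two-sided moderated tests and Benjamini-Hochberg adjustment over all tested genes; it was checked on simulated data. pandas 2.3.3 and matplotlib 3.10.9 (Python 3.11.15) were used for tables and plots. Array values are given for members whose group means span at least 4-fold and the widest in each family, to at most 24, and every Irf gene by its group means. In each comparison up to 3 members per family with the smallest adjusted p, and the 3 highest and 3 lowest called were named, with up to 3 genes from each other pathway list. Further members, the risers and fallers named where few passed, the figure genes and the promoters were chosen after their values were seen. The members and lists were chosen with earlier results of these data known. Same-numbered muscle arrays deviated together (r = 0.271 to 0.31) and other pairs did not (r = -0.195 to -0.0912), so the numbers pair the muscle samples. In tumor the equalised repeat means void this check. No label says that the repeats were separate animals, so p-values measure the spread between these samples. Alternatives were other filters, no centring, quantile normalization, the repeat as a block, fits of the compared groups alone, and samples left out. Within a tissue the block was fitted on the compared groups alone.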

Additional observations from a re-analysis of the deposited data

Results flagged for a closer look

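Of 63 tests for a sample apart from the other 3 of its tumor population (Dixon's test), 5 were past the 95% critical value, and chance gives about 1 in 20. Ifi204 measured 9.97 in Tom-/Pecam1- tumor repeat 4, against 7.93 to 8.02 in the other 3 repeats. Ifi204 measured 4.91 in Tom+/Pecam1- tumor repeat 4, against 6.58 to 6.67 in the other 3 repeats. Since repeat means are equal in tumor, the pair of Ifi204 values is not independent. Ifi207 measured 6.92 in Tom+/Pecam1- tumor repeat 4, against 7.42 to 7.51 in the other 3 repeats. Oasl2 measured 6.79 in Tom-/Pecam1- tumor repeat 4, against 7.06 to 7.09 in the other 3 repeats. Isg15 measured 7.52 in Tom+/Pecam1+ tumor repeat 2, against 6.77 to 6.87 in the other 3 repeats. Repeat 4, which held 4 of these 5 values, came from day 38 and the other tumor repeats from day 48.

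The difference between marked and unmarked cells was lower in tumor than in muscle, by limma's test of the difference itself, for 18 of the members named for it. The log2 differences, tumor minus muscle, were -4.54 for Gbp4, -3.70 for Gbp5, -3.03 for Gbp7, -3.43 for Gbp9, -0.87 for Ifi202b, -3.17 for Ifi203-ps, -2.29 for Ifi208, -2.58 for Ifit1, -1.17 for Ifit2, -0.66 for Ifit3, -1.48 for Irf2, -2.28 for Irf7, -1.42 for Irf9, -1.98 for Isg15, -1.74 for Oas1b, -2.73 for Oas2, -2.03 for Oasl2 and -1.44 for Ifi35. The gates of the marked cells differed between the tissues, and their part was not tested.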

How the results depend on the processing

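Over 328 results of single members, 209 kept their side of the threshold under every alternative. In at least 1 alternative 62 lost a call and 57 gained one. A change of sign counted as a reversal only where the main or the alternative result was called, so results called in neither may have changed sign. The 1 reversal so counted was Irf3 in Tom-/Pecam1- tumor against Tom- muscle cells, at 0.046, adjusted p = 0.748 on deposited values and -0.29 on centred values. Within a tissue the replicate block was fitted on the compared arrays alone, so its effect is not separate from that of leaving out the other arrays. In such fits 7 members fell in Tom+ against Tom- muscle cells (4 in the main fit). In Tom+/Pecam1- against Tom-/Pecam1- tumor cells 8 fell (15) and 0 rose (2). Between tissues the block ended the calls of Gbp3, Ifit2 and Irf3 (adjusted p 0.0522 to 0.104) for the endothelial pair, Gbp10 and Irf3 (adjusted p 0.0509 to 0.127) for Tom-/Pecam1- tumor cells, Gbp3 (adjusted p 0.0869) for Tom+/Pecam1- tumor cells and Irf4 and Oas1c (adjusted p 0.081 to 0.0901) for the mark difference. With it Irf1 passed as lower in the endothelial pair (adjusted p = 0.00616) and in Tom-/Pecam1- tumor cells against Tom- muscle cells (adjusted p = 0.00448). In tumor against muscle the block leaves variation between repeats out of the error, so these p-values tend to be too small. The 2 rises between the Pecam1- tumor populations became 1 with no filter, 0 after quantile normalization and 1 without tumor repeat 4, and ranged over 0 to 2 with 1 array left out. Without tumor repeat 4, 4 members fell in Tom+/Pecam1+ against Tom+/Pecam1- cells (2 with it), and 2 mark differences were higher in tumor (0); 1 was with the 60th percentile filter, with the compared groups alone, and without muscle repeats 1 and 2. On deposited values 14 rose and 7 fell in the endothelial pair (6 and 12), 4 fell in Tom+/Pecam1- tumor against Tom- muscle cells (7; 11 with no filter), and 1 fell in Tom-/Pecam1- tumor against Tom- muscle cells (2; 5 with no filter, 1 with the 60th percentile filter). Without muscle repeats 1 and 2, which leaves 1 array per muscle population and assumes that it varies like the other groups, 13 rose in Tom-/Pecam1- tumor cells (22). The cause of these shifts was not tested.

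With 1 array left out, the number of members that rose ranged over 22 to 23 in muscle, 20 to 21 and 18 to 21 in Tom+/Pecam1+ against Tom+/Pecam1- and Tom-/Pecam1- tumor cells, 5 to 8 in the endothelial pair, and 20 to 23 and 12 to 13 in Tom-/Pecam1- and Tom+/Pecam1- tumor against Tom- muscle cells, and 0 to 1 mark differences were higher. In the same order 3 to 5, 2 to 3, 9 to 11, 10 to 13, 1 to 4 and 5 to 8 fell, 13 to 16 fell between the Pecam1- tumor populations, and 25 to 30 mark differences were lower. The lowest count of falls in Tom-/Pecam1- tumor cells, 1, was without Tom- muscle repeat 3 and the highest, 4, without Tom- muscle repeat 2. Signal over background limits the dim members: Gbp5, Gbp8, Ifi202b, Ifi208, Ifi209 and Oas1g lay near or below the 40th percentile in some populations, where differences are compressed.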

Other observations

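7 probe sets that carry a name of these families are assigned to several genes and entered no comparison; their log2 levels are given as mean ± SD (n = 4 per tumor and 3 per muscle population). The probe set shared by Gbp2 and Gbp2b had 8.36 ± 0.275 in Tom+/Pecam1+ tumor cells, 6.77 ± 0.21 in Tom+/Pecam1- tumor cells, 7.15 ± 0.189 in Tom-/Pecam1- tumor cells, 8.62 ± 0.112 in Tom+ muscle cells and 6.41 ± 0.408 in Tom- muscle cells, so its highest means were those of the populations with endothelial markers. The probe set of Ifi203 and Ifi203-ps had 9.59 ± 0.196 in Tom+/Pecam1+ tumor cells, 6.82 ± 0.131 in Tom+/Pecam1- tumor cells, 8.12 ± 0.177 in Tom-/Pecam1- tumor cells, 9.28 ± 0.156 in Tom+ muscle cells and 6.75 ± 0.127 in Tom- muscle cells, with its highest means in the same populations as Ifi203-ps. The probe set of Ifi47, an immunity-related GTPase, and the olfactory receptor gene Olfr56 had 6.16 ± 0.115 in Tom+/Pecam1+ tumor cells, 5.09 ± 0.067 in Tom+/Pecam1- tumor cells, 5.38 ± 0.116 in Tom-/Pecam1- tumor cells, 6.13 ± 0.28 in Tom+ muscle cells and 4.19 ± 0.247 in Tom- muscle cells. These 3 probe sets had their highest means in Tom+ muscle cells and Tom+/Pecam1+ tumor cells.

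The probe set shared by Irf5, a regulatory factor active in macrophages, and Tnpo3 had 6.18 ± 0.244 in Tom+/Pecam1+ tumor cells, 6.60 ± 0.167 in Tom+/Pecam1- tumor cells, 7.68 ± 0.274 in Tom-/Pecam1- tumor cells, 4.99 ± 0.0917 in Tom+ muscle cells and 5.26 ± 0.128 in Tom- muscle cells. That of Ifi211 and Ifi204 had 9.14 ± 0.2 in Tom+/Pecam1+ tumor cells, 8.47 ± 0.425 in Tom+/Pecam1- tumor cells, 9.77 ± 0.314 in Tom-/Pecam1- tumor cells, 7.07 ± 0.199 in Tom+ muscle cells and 7.64 ± 0.818 in Tom- muscle cells. Both were highest in Tom-/Pecam1- tumor cells. That of Oas1a and Oas1g had 5.06 ± 0.444 in Tom+/Pecam1+ tumor cells, 4.44 ± 0.388 in Tom+/Pecam1- tumor cells, 5.36 ± 0.208 in Tom-/Pecam1- tumor cells, 4.58 ± 0.383 in Tom+ muscle cells and 3.23 ± 0.123 in Tom- muscle cells. That of Ifi27l2a and Ifi27l2b had 6.50 ± 0.509 in Tom+/Pecam1+ tumor cells, 6.74 ± 0.353 in Tom+/Pecam1- tumor cells, 7.67 ± 0.289 in Tom-/Pecam1- tumor cells, 6.82 ± 0.293 in Tom+ muscle cells and 6.75 ± 0.623 in Tom- muscle cells. These were also highest in Tom-/Pecam1- tumor cells by mean. 3 members had a second probe set of their own. That of Ifi35 had 7.72 ± 0.241 in Tom+/Pecam1+ tumor cells, 6.91 ± 0.281 in Tom+/Pecam1- tumor cells, 7.25 ± 0.132 in Tom-/Pecam1- tumor cells, 7.56 ± 0.128 in Tom+ muscle cells and 6.53 ± 0.164 in Tom- muscle cells. That of Irf8 had 5.54 ± 0.503 in Tom+/Pecam1+ tumor cells, 5.68 ± 0.407 in Tom+/Pecam1- tumor cells, 6.97 ± 0.904 in Tom-/Pecam1- tumor cells, 5.58 ± 0.263 in Tom+ muscle cells and 5.70 ± 0.413 in Tom- muscle cells. That of Irf2bp2 had 8.07 ± 0.121 in Tom+/Pecam1+ tumor cells, 7.99 ± 0.0942 in Tom+/Pecam1- tumor cells, 8.07 ± 0.043 in Tom-/Pecam1- tumor cells, 6.71 ± 0.175 in Tom+ muscle cells and 6.49 ± 0.179 in Tom- muscle cells. For Ifi35, Irf8 and Irf2bp2 the population with the highest mean of the deposited values was the same on both probe sets. For Irf2bp2 the second probe set barely separated the top means, at 8.075 in Tom-/Pecam1- and 8.068 in Tom+/Pecam1+ tumor cells.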
